A study of Mus musculus with 21 samples.

Results

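Barhl1 and Barhl2 are Bar-class homeobox genes of the mouse. Their loci were followed here through open chromatin in cerebellar progenitors, pre-tumor cells, tumors and a medulloblastoma cell line. Each locus was taken as the gene body plus 100 kb either side, and its members were the peak summits found there among the 100000 highest-scoring summits of each library (kept summits). Of 2100000 kept summits over 21 libraries, 736 lay in the Barhl1 window and 374 in the Barhl2 window. Merged across libraries, they formed 73 and 33 regions of 500 bp, 106 of 271977 in all.

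Omni-ATAC, which cuts accessible DNA with a transposase, was applied to 7 groups of 3 libraries. The 9 primary libraries all came from EGFP-positive cells sorted from cerebella that carry an Atoh1-EGFP reporter, so every primary group was selected by the same reporter of the granule lineage. They were granule neuron progenitors at postnatal day 7 (GNP; their titles begin with Ptch1, and no genotype is stated), cells of hyperplasia at postnatal day 28 (titles PNC) and medulloblastoma tumors, for which no age is given. The 12 remaining libraries came from VDR, labelled a mouse medulloblastoma cell line, which is a single line. These cells were untreated or had been given an siRNA, which was a control (siNC) or targeted Nfia (siNfia) or Nfib (siNfib), although the deposited names begin with sh. Whether replicates are separate animals or cultures is not labelled, so p-values measure the spread between these libraries, which may be technical.

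The Barhl proteins are homeodomain transcription factors related to the Drosophila BarH proteins. In the mouse, Barhl1 marks neurons that arise from the rhombic lip, granule cell precursors among them, and it acts downstream of Atoh1, the basic helix-loop-helix factor that specifies these cells. Barhl2 is best known in the retina, where it takes part in the development of amacrine and ganglion cells, and in dorsal interneurons of the spinal cord. NFIA and NFIB, whose messages the siRNAs target, are nuclear factor I proteins that bind TTGGC and promote the maturation of granule neurons.

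Barhl1 (gene ID 54422) lies on the minus strand at chr2:28907680-28917984 (mm10), with annotated starts at 28916668 and 28912495. Its window also holds Gtf3c4, which encodes a subunit of transcription factor IIIC, Ddx31, which encodes a DEAD-box protein, parts of Ak8 (an adenylate kinase gene) and Cfap77, and the pseudogenes Gm13386 and Gm13394. Barhl2 (gene ID 104382) lies on the minus strand at chr5:106452523-106458166 with 1 annotated start at 106458166. No other protein-coding gene enters its window, which holds 5 annotated lncRNAs and Gm8350. The nearest lncRNA, Gm33151, begins just upstream of Barhl2 at chr5:106458592-106459739.

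The 250 bases before each start are shown to set the letters next to the starts beside the counts of summits near them, which were taken within 1 kb of a start and so reach beyond these bases. No kept summit of any library lay in the bases printed for the internal start of Barhl1. They are from RefSeq (GRCm38.p6), 5′ to 3′ on the strand of the gene. Capitals mark matches on either strand to CANNTG (the E-box bound by factors such as Atoh1), CAGCTG (which is also a CANNTG), the nuclear factor I core TTGGC, the homeodomain core TAATTA, its variant TAATTG, the Barhl-type site TAAACG or the Gli site GACCACCCA.
Barhl1 start 1 (chr2:28916669-28916918): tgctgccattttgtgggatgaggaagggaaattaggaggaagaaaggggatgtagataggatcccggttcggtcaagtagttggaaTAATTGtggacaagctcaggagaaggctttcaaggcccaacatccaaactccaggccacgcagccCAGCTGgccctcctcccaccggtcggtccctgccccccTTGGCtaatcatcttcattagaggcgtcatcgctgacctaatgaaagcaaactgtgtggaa
Barhl1 start 2 (chr2:28912496-28912745): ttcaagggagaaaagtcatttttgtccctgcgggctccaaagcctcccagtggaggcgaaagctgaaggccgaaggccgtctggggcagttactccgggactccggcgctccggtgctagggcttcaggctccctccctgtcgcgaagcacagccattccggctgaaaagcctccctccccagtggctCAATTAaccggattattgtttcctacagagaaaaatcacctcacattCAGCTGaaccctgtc
Barhl2 (chr5:106458167-106458416): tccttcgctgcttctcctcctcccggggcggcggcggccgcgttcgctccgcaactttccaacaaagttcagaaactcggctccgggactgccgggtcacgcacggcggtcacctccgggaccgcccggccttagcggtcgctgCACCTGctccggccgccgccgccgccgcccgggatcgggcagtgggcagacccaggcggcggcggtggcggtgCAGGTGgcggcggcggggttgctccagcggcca
The upstream Barhl1 promoter held the E-box CAGCTG, the nuclear factor I core TTGGC and the homeodomain variant TAATTG. The internal promoter held the same E-box CAGCTG with the homeodomain variant TAATTG on the opposite strand. Barhl2 held 2 CANNTG matches and none of the other motifs, and it was richer in G and C (74.8%) than both Barhl1 promoters (52.8% and 56.8%). The median over 32851 promoters was 52.4%. Among those promoters 66.2% held an E-box CANNTG and 13% the form CAGCTG, 41.5% held the nuclear factor I core, 4.84% the homeodomain core and 7.17% its variant, 2.76% the Barhl-type site and 0.225% the Gli site. A match is a description of the letters and not evidence of binding.

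Read depth is unknown, since the lists give scores and no counts. The lists held 159720 to 279584 summits, and the score at rank 100000 ran from 3.76 to 28.9. Untreated VDR libraries stood apart across the genome. Their scores at rank 100000 were 3.76 to 3.97, the 3 commonest scores covered 60.3% to 65.6% of their kept summits (5.8% to 40.4% in the other 18 libraries), and pairs of them shared on average 0.223 of their occupied regions (intersection over union), against 0.614 to 0.807 within every other group. Results that use untreated VDR are therefore given beside those from siNC-treated cells. The gene bodies of the 8 granule progenitor markers (Atoh1, Pax6, Zic1, Neurod1, Gli1, Mycn, Ccnd1 and Cntn2) each held a kept summit in at least 1 library of every group, apart from Neurod1 in untreated VDR. Summed over the list, their gene bodies held 56 to 83 kept summits in primary libraries. Lists for other cell types held summits as well, with 13 to 23 for 5 astrocyte markers, 13 to 20 for 5 of oligodendrocytes, 2 to 5 for 5 of microglia, 17 to 25 for 5 of endothelium and 7 to 15 for 6 of Purkinje cells and interneurons. Members of these lists with no gene-body summit in any primary group were S100b, Sox10, Mog, Cx3cr1, Aif1, Cldn5 and Pcp2.

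Barhl2 was the locus that separated primary cells from the cell line. In GNP the window held 30, 32 and 32 kept summits, in hyperplasia 28, 33 and 24, and in tumor 28, 30 and 27. Untreated VDR libraries held 3, 3 and 5, siNC libraries 7, 15 and 13, siNfia libraries 8, 13 and 14, and siNfib libraries 11, 8 and 10. The 9 primary libraries (24 to 33) did not overlap the 12 VDR libraries (3 to 15), a separation in this direction that 6.75% of 17732 genes showed, whereas the primary stages overlapped each other and so did the 3 siRNA groups. In order of mean level the groups ran GNP (31.3 ± 1.15, SD, n = 3 here and below), hyperplasia (28.3 ± 4.51) and tumor (28.3 ± 1.53), then siNC (11.7 ± 4.16) and siNfia (11.7 ± 3.22), siNfib (9.67 ± 1.53) and untreated VDR (3.67 ± 1.15). The only neighbours in that order whose libraries did not overlap were tumor against siNC and siNfib against untreated VDR, where 22.3% and 40.1% of genes separated in the same direction.

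Over its whole window Barhl1 kept a more even level. Its window held 44, 46 and 53 kept summits in GNP, 45, 41 and 35 in hyperplasia, and 35, 36 and 35 in tumor. In the line there were 31, 24 and 36 in untreated cells, 31, 33 and 39 with siNC, 25, 30 and 25 with siNfia, and 31, 30 and 31 with siNfib. GNP stood above tumor without overlap, as for 17.9% of genes, hyperplasia overlapped both, and the siNfia libraries lay below those of siNC, as for 7.47% of genes. Mean levels ran from 47.7 ± 4.73 in GNP through 40.3 ± 5.03 in hyperplasia, 35.3 ± 0.577 in tumor, 34.3 ± 4.16 with siNC, 30.7 ± 0.577 with siNfib and 30.3 ± 6.03 in untreated VDR to 26.7 ± 2.89 with siNfia, and every pair of neighbours in this order overlapped. Across the 21 libraries the log2 counts of the loci had a Pearson r of 0.701, a description of libraries that share their group structure.

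**Figure D1:**
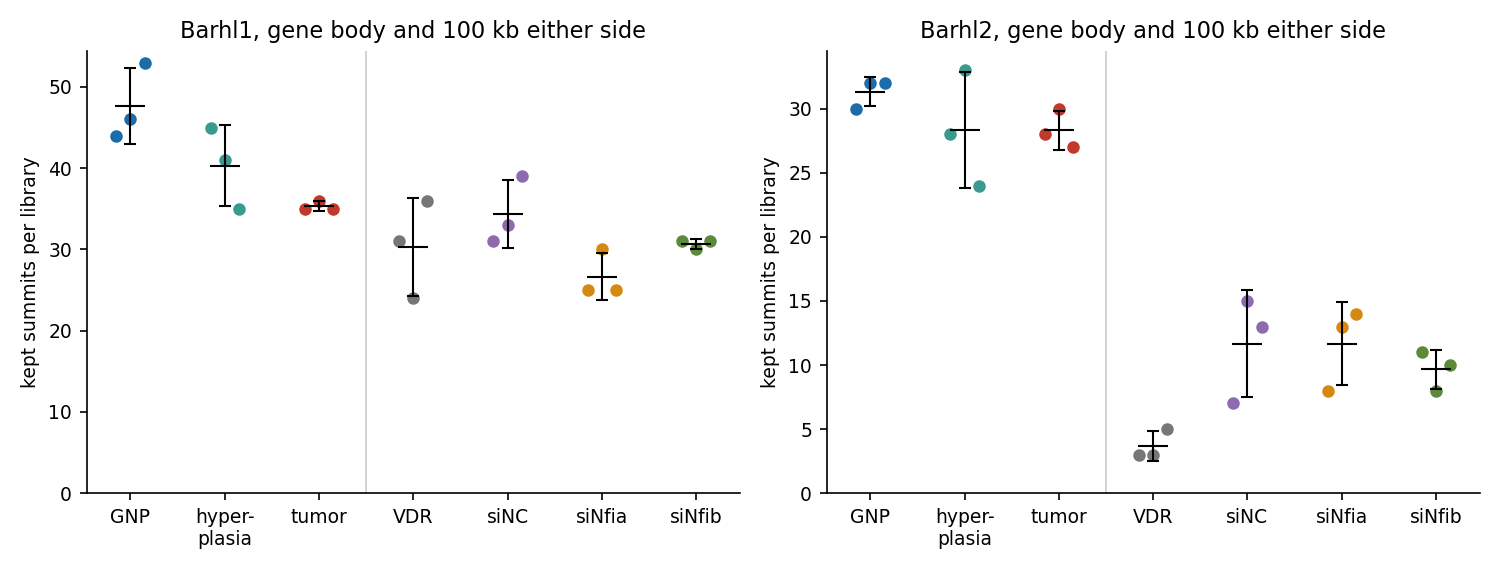
Kept summits per library (y axis) in the gene body and 100 kb either side of Barhl1 (left) and Barhl2 (right), by group on the x axis. Points are libraries, and bars show the mean and SD of 3. At Barhl2 the primary libraries lie between 24 and 33 and all VDR libraries between 3 and 15, while at Barhl1 the ranges of primary (35 to 53) and VDR libraries (24 to 39) overlap.

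Where the summits lay differed between the loci. At Barhl1, the strongest summit of the window fell in 1 region 49.0 kb downstream of the upstream start, inside Ddx31 (chr2:28867419-28867918), in 19 of 21 libraries. Its best rank in any list was 133. In the remaining 2 libraries the strongest summit lay 55.5 kb downstream (1 siNC library) or 49.5 kb upstream in Cfap77 (1 siNfia library). The strongest summit within 1 kb of a Barhl1 start ranked 1329 to 6342 in primary lists and 9821 to 56165 in VDR lists. At Barhl2 the strongest summit fell in 1 region 0.5 kb upstream of the start, in Gm33151 (chr5:106458433-106458932), in 17 of 21 libraries. All 3 GNP libraries instead had it in the gene body, 3.7 kb downstream (chr5:106454252-106454751), and 1 untreated VDR library had it 6.3 kb downstream. Ranks are positions within a single list and are not levels.

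Of the 73 Barhl1 regions, 5 were occupied in all 21 libraries, and none of the 33 Barhl2 regions was. Genome-wide 5.43% of regions were. The 5 Barhl1 regions lay 55.5 and 49.0 kb downstream in Ddx31, at the upstream start (0.1 kb downstream, chr2:28916346-28916845), and 57.4 and 60.2 kb upstream in Cfap77, so 1 of the 5 was at the gene itself. The closest Barhl2 came was the region 0.5 kb upstream, occupied in 20 of 21 libraries and missing from 1 untreated VDR library, where a weaker summit was still listed. Regions seen only in untreated VDR numbered 29 of 73 at Barhl1 and 4 of 33 at Barhl2, against 40.4% of all regions. Leaving out every region seen in a single library left 41 at Barhl1 and 27 at Barhl2.

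**Figure D2:**
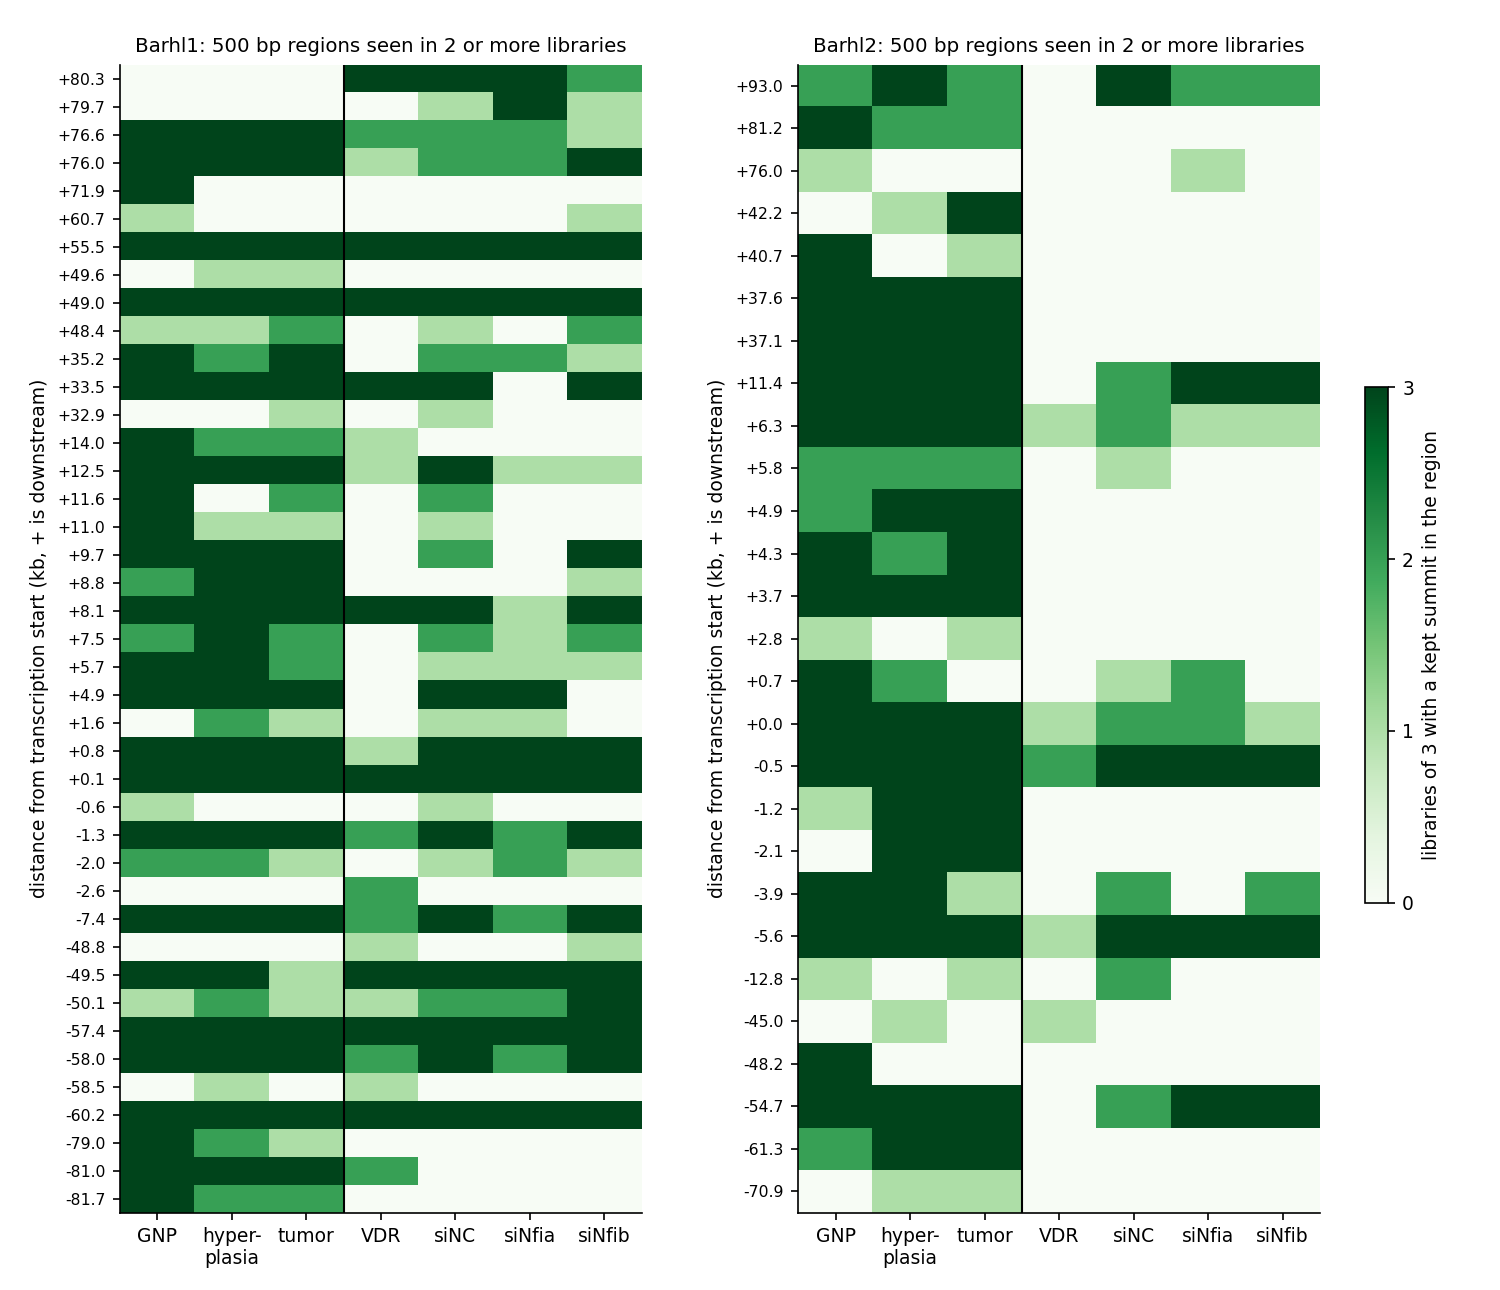
Libraries of 3 with a kept summit (colour, 0 to 3) in each 500 bp region of the Barhl1 (left) and Barhl2 (right) windows that was seen in 2 or more libraries. Rows are ordered by distance from the upstream start in kb, and columns are the 7 groups. At Barhl1, 5 rows are dark in every column, and at Barhl2 the rows 3.7 to 4.9 kb downstream, in the gene body, and 37.1 to 37.6 kb downstream hold 2 or 3 libraries of each primary group and none of the VDR groups.

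The promoters were open in most groups. All 21 libraries had a kept summit within 1 kb of the upstream Barhl1 start and of the Barhl2 start. For the internal Barhl1 start this held in every primary, siNC and siNfia library, in 1 of 3 untreated VDR libraries and in 0 of 3 siNfib libraries. Whole lists of untreated VDR and siNfib still held a summit in 3 of 3 libraries each within 1 kb of it (chr2:28911532-28912031). The difference there is therefore one of rank, and the share of all starts that differ in this way was not computed. The number of kept summits within 1 kb of the Barhl2 start was 5, 5 and 5 in GNP, 4, 5 and 3 in hyperplasia and 2, 2 and 2 in tumor. GNP and tumor did not overlap there, and tumor was lower without overlap at 7.14% of 10983 genes with a kept summit within 1 kb of a start in either group. The siNC libraries held 3, 5 and 4. The region 0.7 kb inside Barhl2 (chr5:106457168-106457667) followed, with 3 of 3 GNP libraries, 2 of 3 hyperplasia and 0 of 3 tumor. At the ends of Barhl1, regions 8.1 kb downstream of the start and 1.3 kb upstream were occupied in all 9 primary libraries and in 10 of 12 VDR libraries each. The region just inside the 3′ end of Barhl1 (8.8 kb downstream, chr2:28907652-28908151) was occupied in 8 of 9 primary and 1 of 12 VDR libraries. Beside it, the region 9.7 kb downstream was occupied in 9 of 9 primary and 5 of 12 VDR libraries, and upstream of the gene the region 2.0 kb from the start in 5 and 4. At Barhl2 the region over the start itself was occupied in 9 of 9 primary and 6 of 12 VDR libraries. Past its 3′ end, the region 6.3 kb downstream of the start was occupied in 9 and 5, and the region 5.8 kb downstream in 6 and 1.

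**Figure D3:**
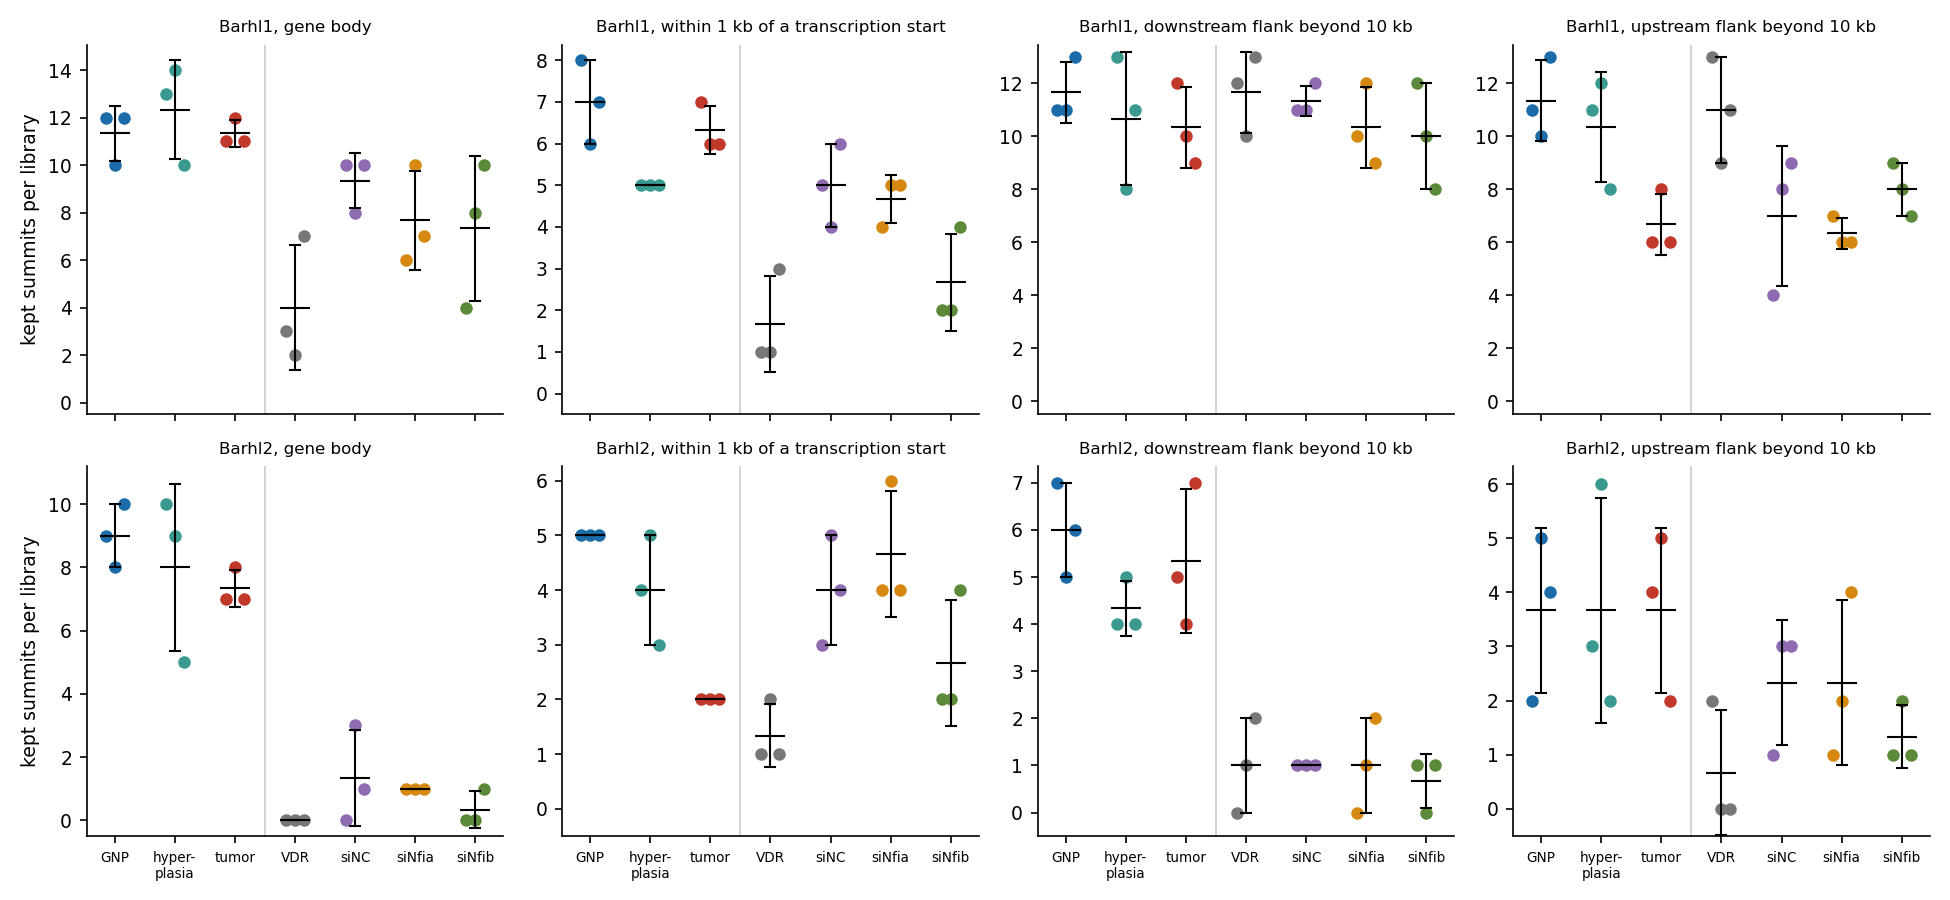
Kept summits per library in 4 segments of the Barhl1 (top) and Barhl2 (bottom) windows, by group. Points are libraries, and bars show the mean and SD of 3. The Barhl2 gene body holds 5 to 10 summits in primary libraries and 0 to 3 in VDR libraries. The Barhl1 gene body holds 10 to 14 and 2 to 10, while its downstream flank beyond 10 kb holds 8 to 13 in both. The share of all gene bodies that separate as that of Barhl2 does was not computed.

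The first comparison followed the loci from progenitors to hyperplasia and tumor. GNP were from postnatal day 7, hyperplasia from day 28 and tumors of no stated age, so stage and age cannot be told apart. Barhl1 fell from GNP to tumor by 0.42 ± 0.09 on the log2 scale of summits plus 1 (SE, 1.34-fold, adjusted p = 0.0141 with limma over 17918 genes), and Barhl2 was not called in any stage comparison. From GNP to tumor 7.03% of all genes were called lower and 5.63% higher, so 1 of 2 members called lower is set against that background. All 3 tumor libraries were below all 3 GNP libraries, a separation that 17.9% of genes showed in this direction. An exact permutation test over the 3 stages gave p = 0.0286 for Barhl1 (adjusted p = 0.0571 over 4 tests) and p = 0.411 for Barhl2, where the smallest p possible was 0.00357. The limma call ended without GNP replicate 3 (adjusted p = 0.0698) and without tumor replicate 1 (adjusted p = 0.0505), and also with whole lists (adjusted p = 0.29) with flanks of 50 kb (adjusted p = 0.0628) or when occupied regions were counted (adjusted p = 0.158). In the same groups the summed window count of the 8 granule progenitor markers was 292 to 310 in GNP and 270 to 286 in tumor, and that of 5 astrocyte markers (Aqp4 and S100b hold no gene-body summit in GNP) was 86 to 93 in GNP and 101 to 109 in tumor. Oligodendrocyte markers held 115 to 133 in GNP and 137 to 143 in tumor, and those of microglia 108 to 111 and 103 to 114. Markers of endothelium held 79 to 83 and 69 to 75, and those of Purkinje cells and interneurons 81 to 86 and 68 to 70. Their part in the Barhl1 result was not tested, and in bulk samples fewer cells with an open site and less opening per cell cannot be told apart.

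Part of the Barhl1 difference lay in the upstream flank beyond 10 kb, within and around Cfap77, with 11, 10 and 13 kept summits in GNP, 11, 12 and 8 in hyperplasia and 6, 8 and 6 in tumor. The gene body with 10 kb either side held 24.7 ± 2.52 in GNP and 18.3 ± 1.53 in tumor, while the gene body alone held 11.3 ± 1.15 and 11.3 ± 0.577. Neighbouring genes share most of this window and so its summits. Ddx31 was called lower as well (by 0.39 ± 0.10, adjusted p = 0.0224), while Gtf3c4 (adjusted p = 0.103), Cfap77 (adjusted p = 0.0561) and Ak8 (adjusted p = 0.148) were not, all with limma.

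Hyperplasia differed from GNP by -0.24 ± 0.09 at Barhl1 (SE, adjusted p = 0.134) and by -0.15 ± 0.10 at Barhl2 (adjusted p = 0.382). Over all genes, 4.31% were called lower and 3.96% higher by limma. From hyperplasia to tumor the differences were -0.18 ± 0.09 at Barhl1 (adjusted p = 0.314) and 0.01 ± 0.10 at Barhl2 (adjusted p = 0.98), with 1.91% of genes called lower and 1.58% higher.

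Single regions changed in a few places. A region was counted as gained or lost when it was occupied in 3 of 3 libraries of a group and 0 of 3 of the other, a rule with no test, since the smallest exact two-sided p of 3 against 3 is 0.1. From GNP to hyperplasia, Barhl2 gained 1 of 28 regions, 2.1 kb upstream of the start (chr5:106460012-106460511), and lost 2, 40.7 kb downstream and 48.2 kb upstream in Gm28050. The whole lists of hyperplasia still held a summit in the lost regions in 2 of 3 and 1 of 3 libraries. Barhl1 lost 2 of 37, 71.9 and 11.6 kb downstream in Ddx31. The nearer of these was still listed in 3 of 3 hyperplasia libraries and kept in 2 of 3 tumor libraries, and the farther was listed in 0 of 3 of each. Genome-wide 4.7% of regions were gained and 4.42% lost in this comparison. The Barhl2 region 2.1 kb upstream was also occupied in 3 of 3 tumor libraries, and in 0 of 12 VDR libraries. A weaker summit was listed there in 2 of 3 GNP libraries, so the gain includes a move in rank. Its neighbour 1.2 kb upstream in Gm33151 had a similar pattern, with 1 of 3 GNP (3 of 3 in whole lists), 3 of 3 hyperplasia, 3 of 3 tumor and 0 of 12 VDR libraries.

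From GNP to tumor, Barhl2 gained that region and 1 more 42.2 kb downstream and lost 2, those 0.7 kb downstream and 48.2 kb upstream. The whole lists held a summit in the region 42.2 kb downstream in 3 of 3 GNP libraries and in the one 0.7 kb downstream in 3 of 3 tumor libraries, so both changed in rank, while the one 48.2 kb upstream was listed in 0 of 3 tumor libraries. Barhl1 lost the region 71.9 kb downstream, and these counts stand against 4.74% gained and 4.37% lost genome-wide. That Barhl1 region and the Barhl2 region 48.2 kb upstream were occupied in 3 of 3 GNP libraries and in no other library. Their best ranks were 89581 and 93436, near the end of the kept lists. The share of all regions with this pattern was not computed, so it is a description. No region of either locus was gained or lost between hyperplasia and tumor by the same rule, where 1.83% and 2.02% of all regions were.

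The next comparison set the cell line against the tumors. Barhl2 fell from 28.3 ± 1.53 kept summits in tumor to 3.67 ± 1.15 in untreated VDR and to 11.7 ± 4.16 in siNC-treated VDR. On the log2 scale the falls were -2.68 ± 0.21 (SE, 6.4-fold, adjusted p = 5.09e-12 with limma over 17732 genes) and -1.27 ± 0.21 (SE, 2.41-fold, adjusted p = 1.36e-05). All 3 libraries were lower than every tumor library in both comparisons, as they were for 38.7% and 22.3% of all genes. These are comparisons in which many genes change. Against tumor, 44.5% of genes were called lower and 24.4% higher in untreated VDR, and 18.6% lower and 25% higher with siNC. The median gene moved by -0.25 in untreated VDR, from which Barhl2 stood -2.42 apart. A value as low as that of Barhl2 or lower was found in 0.767% of genes for untreated VDR and in 3.02% for siNC. Relative to all kept summits of chromosome 5 in the same library, the Barhl2 changes were -2.06 (adjusted p = 3.44e-10) and -0.85 (adjusted p = 0.000948).

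The summed window count of the granule progenitor markers was 171 to 190 in untreated VDR and 248 to 280 with siNC against 270 to 286 in tumor. The astrocyte list was at 128 to 138, 84 to 92 and 101 to 109 in the same order, and oligodendrocytes at 116 to 138, 99 to 103 and 137 to 143. Microglia were at 117 to 148, 127 to 140 and 103 to 114, endothelium at 57 to 69, 61 to 63 and 69 to 75, and Purkinje cells and interneurons at 80 to 103, 61 to 64 and 68 to 70. The part of these lists in the Barhl2 fall was not tested. The fall also stood in the whole lists, where the Barhl2 window held 50, 83 and 56 summits in tumor, 8, 8 and 11 in untreated VDR and 14, 26 and 24 with siNC. Those lists held 195450 to 263313 summits in tumor, 159720 to 194134 in untreated VDR and 192817 to 228691 with siNC.

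Over its whole window Barhl1 did not fall in the same way. It differed from tumor by -0.23 ± 0.12 in untreated VDR (SE, adjusted p = 0.091) and by -0.05 ± 0.12 with siNC (adjusted p = 0.783). The untreated difference was called when untreated VDR replicate 3 was left out (-0.36, adjusted p = 0.0119), when summits tied at the cutoff were left out (-0.41, adjusted p = 0.00573) and in the gene body with 10 kb flanks (-1.24, adjusted p = 2.29e-05), and it moved to -0.04 relative to chromosome 2. Its gene body held 11, 12 and 11 kept summits in tumor, 3, 2 and 7 in untreated VDR and 10, 8 and 10 with siNC. The downstream flank beyond 10 kb held 10.3 ± 1.53 in tumor, 11.7 ± 1.53 in untreated VDR and 11.3 ± 0.577 with siNC. For the upstream flank beyond 10 kb the means were 6.67 in tumor, 11 in untreated VDR and 7 with siNC.

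**Figure D4:**
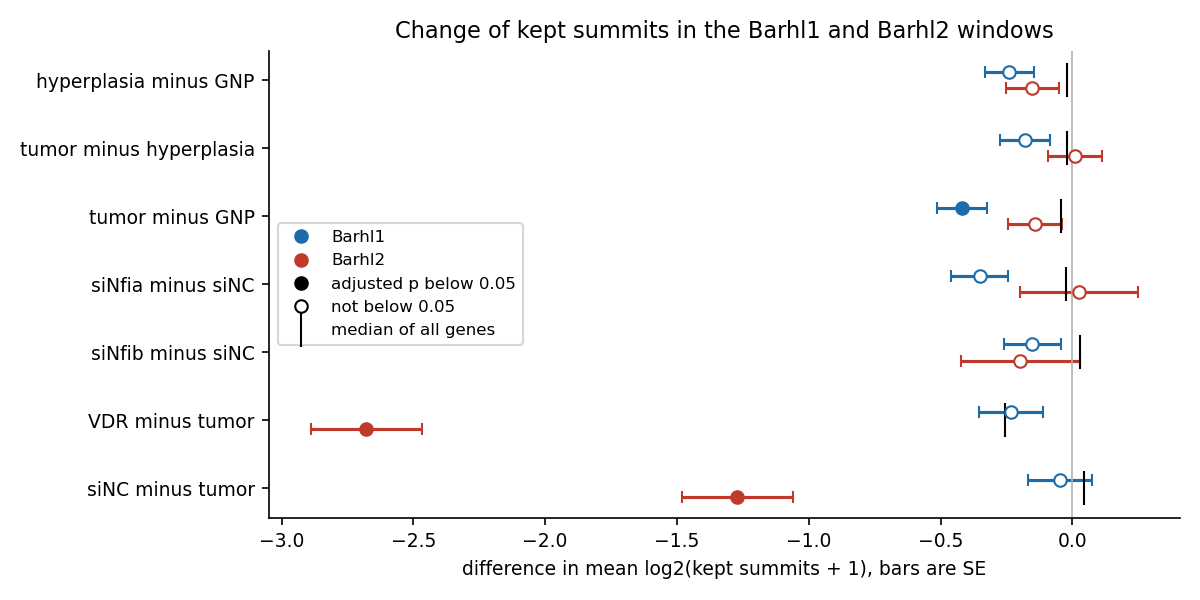
Difference in mean log2(kept summits + 1) between 2 groups (x axis) for Barhl1 (blue) and Barhl2 (red) in 7 comparisons, with SE. Filled points have an adjusted p below 0.05, and black ticks show the median of all genes. Barhl2 lies at -2.68 in untreated VDR and -1.27 with siNC against tumor, and the filled Barhl1 point is tumor against GNP at -0.42.

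The lost Barhl2 regions lay in the gene and on both sides of it. Against tumor, 11 of 29 regions were lost in untreated VDR and 9 of 25 with siNC, and none was gained. Genome-wide 8.41% and 10.3% of regions were lost and 0.988% and 4.45% gained. Of the 215104 regions behind the 8.41%, 109828 were seen only in untreated VDR and could not be lost, which lowers that share. At Barhl2, 4 of the 29 were of that kind. Among regions lost in both comparisons, those of best rank were 3.7 kb downstream in the gene body, 37.1 and 37.6 kb downstream (chr5:106420827-106421326 and chr5:106420323-106420822) and 4.9 kb downstream in the gene body (chr5:106452971-106453470). The gene-body region 4.3 kb downstream and those 42.2 kb downstream and 1.2, 2.1 and 61.3 kb upstream were also lost in both comparisons. Untreated VDR alone lacked kept summits in the regions 11.4 kb downstream and 54.7 kb upstream. The best rank of the former was ahead of the one 37.6 kb downstream. Both were occupied in 2 of 3 siNC libraries and in 3 of 3 siNfia and 3 of 3 siNfib libraries. The whole lists of untreated VDR held a summit 11.4 kb downstream in 0 of 3 libraries and 54.7 kb upstream in 2 of 3, so the latter loss includes a move in rank.

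At Barhl1, 4 of 65 regions were lost and 1 was gained in untreated VDR, and 2 of 37 were lost and 1 was gained with siNC. The gained region lay 80.3 kb downstream in Gtf3c4 (chr2:28836152-28836651). It was occupied in 11 of 12 VDR libraries and 0 of 9 primary libraries, but 8 of 9 primary libraries listed a weaker summit there. The Barhl1 region lost with siNC of best rank lay 81.0 kb upstream in Cfap77 (chr2:28997381-28997880). It was occupied in 9 of 9 primary libraries, 2 of 3 untreated VDR libraries and 0 of 9 siRNA libraries. Neighbouring regions 79.0 and 81.7 kb upstream, named after their values were seen, were occupied in 6 and 7 of 9 primary libraries and in 0 of 12 VDR libraries. Summits of any score were listed in the region 81.0 kb upstream in 0 of 9 siRNA libraries.

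Regions open in all 9 primary libraries numbered 17 at Barhl1 and 9 at Barhl2. Of the Barhl2 regions, 3 were occupied in 0 of 12 VDR libraries, against 9.09% of such regions genome-wide, and 0 of the 17 Barhl1 regions were. They were the region in the gene body 3.7 kb downstream and the neighbouring regions 37.1 and 37.6 kb downstream. Weaker summits were listed 3.7 kb downstream in 1 untreated VDR, 1 siNfia and 1 siNfib library. In the region 37.1 kb downstream they were listed in 1 siNC and 2 siNfib libraries. The region 37.6 kb downstream was listed in 0 of 3 libraries of each VDR group. In the siRNA libraries 2 of 9 Barhl2 regions (22.2%) and 6 of 17 Barhl1 regions (35.3%) were occupied in all 9, against 59.9% of such regions genome-wide, 49.7% on chromosome 5 and 56.7% on chromosome 2. The Barhl2 regions occupied in all 9 siRNA libraries were those 0.5 and 5.6 kb upstream of the start. Regions of a locus are few and share their libraries, so these shares are descriptions.

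**Figure D5:**
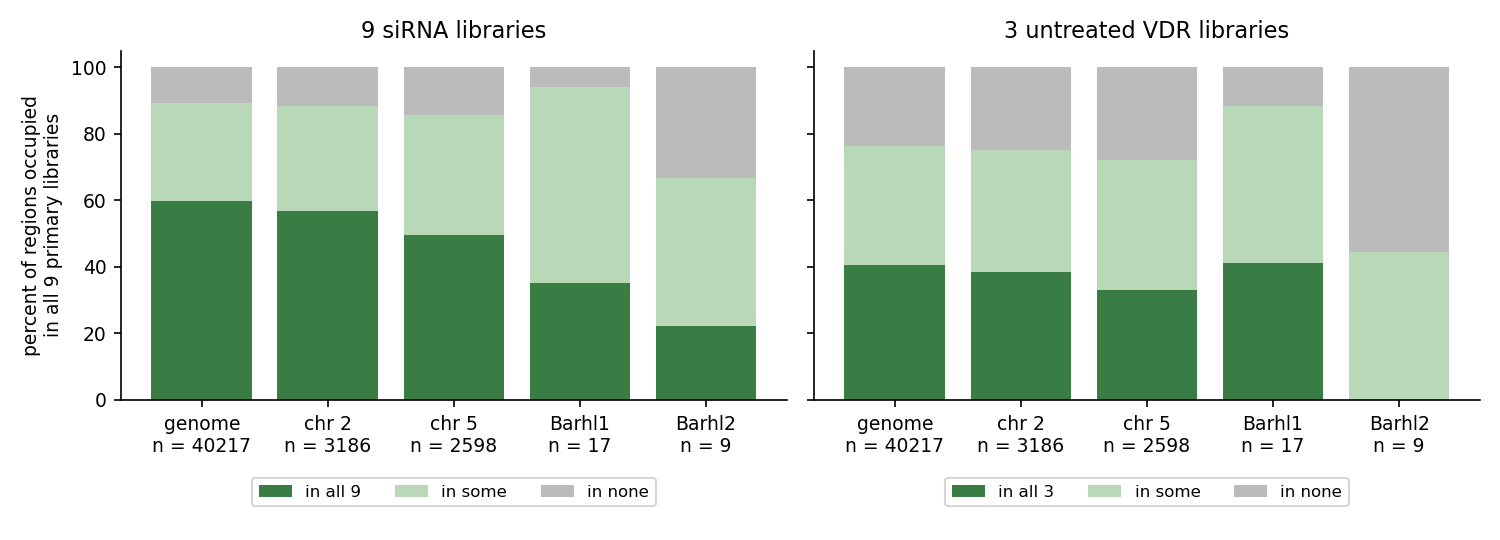
Percent of the regions occupied in all 9 primary libraries that were occupied in all, some or none of the 9 siRNA libraries (left) and of the 3 untreated VDR libraries (right), for the genome, chromosomes 2 and 5 and the loci, with the number of regions under each bar. Of the 9 Barhl2 regions, 33.3% were in no siRNA library against 10.7% genome-wide, and 55.6% were in no untreated VDR library against 23.5%.

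The last comparison asked what the siRNAs against Nfia and Nfib did at the loci in VDR cells. Neither Barhl1 nor Barhl2 was called against siNC for either siRNA. Barhl1 differed by -0.35 ± 0.11 with siNfia (SE, unadjusted p = 0.00344, adjusted p = 0.145 with limma over 17424 genes), with all 3 siNfia libraries (25, 30 and 25) below all 3 siNC libraries (31, 33 and 39). Such a separation was found in 7.47% of genes, and 0.264% of genes were called lower and 0.103% higher. With siNfib the Barhl1 difference was -0.15 ± 0.11 (adjusted p = 0.506). Barhl2 differed by 0.03 ± 0.23 with siNfia (adjusted p = 0.98) and by -0.20 ± 0.23 with siNfib (adjusted p = 0.719), with overlapping libraries in both. For siNfib, 1.38% of genes were called lower and 1.01% higher. The exact permutation test over the 3 siRNA groups gave p = 0.0214 for Barhl1 (adjusted p = 0.0571 over 4 tests) and p = 0.714 for Barhl2. The lists hold no RNA, so they do not check the knockdown. The window of Nfia itself held 73.3 ± 0.577 kept summits with siNfia and 72.3 ± 4.73 with siNC, and that of Nfib held 136 ± 16.4 with siNfib and 152 ± 20.1 with siNC.

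By the rule of 3 of 3 against 0 of 3, each siRNA lost 1 Barhl1 region and changed none at Barhl2. Without that rule, 8 Barhl1 and 3 Barhl2 regions seen in at least 1 siNC library were in 0 of 3 siNfia libraries, and 7 and 3 in 0 of 3 siNfib libraries. In the other direction, 1 Barhl1 and 1 Barhl2 region seen in 0 of 3 siNC libraries were in at least 1 siNfia library. With siNfib these numbers were 4 and 0. The share of all regions that change under this looser rule was not computed, so these counts are descriptions. By the rule of 3 of 3 against 0 of 3, the region lost with siNfia was 33.5 kb downstream in Ddx31 (chr2:28882909-28883408), occupied in all 18 libraries outside that group. With siNfib it was the region 4.9 kb downstream of the upstream start, inside Barhl1 (chr2:28911532-28912031), close to the internal start, occupied in 9 of 9 primary, 3 of 3 siNC and 3 of 3 siNfia libraries but also in 0 of 3 untreated VDR libraries. Both regions still held a summit of lower rank in 3 of 3 libraries of the group that lost them. These are 1 of 32 and 1 of 35 Barhl1 regions, against 0.829% of regions lost and 0.965% gained with siNfia, and 2.16% lost and 3.33% gained with siNfib.

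Factors of the rhombic lip and granule lineage were counted as a list of 18 genes. In hyperplasia against GNP none was higher and 1 lower (3.96% and 4.31% of all genes), Neurod1, a driver of granule neuron differentiation (28.7 ± 0.577 kept summits in GNP and 19.3 ± 4.16 in hyperplasia). From GNP to tumor Lhx2, a LIM homeobox gene, was higher and Meis2, a TALE homeobox gene, lower (5.63% and 7.03% of all genes). Meis2 (adjusted p = 0.0125) and Rfx4 (adjusted p = 0.0372) were lower in tumor than in hyperplasia with limma, where 1.91% of all genes were. For tumor libraries the Meis2 window averaged 0.333 ± 0.577, while hyperplasia averaged 3 and GNP 6.67 ± 2.52. Both Meis2 calls therefore rest on few summits, with the tumor mean below the minimum of 3 set for all libraries of the fit together. The median of the list from GNP to tumor was -0.08 and that of all genes -0.04. In untreated VDR against tumor 13 of 17 tested list genes were lower and 2 higher, where 44.5% of all genes were called lower and 24.4% higher, with a list median of -0.62 against -0.25 for all genes. Zic1, a zinc finger factor of granule precursors, was among them (61.3 ± 6.51 in tumor and 13.3 ± 3.79 in untreated VDR), as was Pax6 (42 ± 8 and 8.67 ± 1.53). Gli2 and Nhlh1 were higher, and the Gli2 window held 522 ± 66.9 in untreated VDR against 60.3 ± 7.57 in tumor. With siNC 5 were lower and 4 higher, against 18.6% and 25% of all genes, the higher ones being Atoh1, Gli2, Nhlh1 and Zic2, and the list median was -0.12 against 0.05. The window of Atoh1, the upstream activator of Barhl1, had 31.7 ± 3.79 kept summits in tumor, 23.7 ± 0.577 in untreated VDR and 45.7 ± 0.577 with siNC. Neither siRNA against a nuclear factor I gene gave a call in the list by limma against siNC, and at an unadjusted p under 0.05 2420 (siNfia) and 2965 (siNfib) of 17424 genes stood out.

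The genes whose window counts were most like those of Barhl2 over the 21 libraries were Col19a1 (Pearson r = 0.976), Adgrl2 (r = 0.965) and Elavl2 (r = 0.963), among 13800 genes compared. Col19a1 encodes a collagen, Adgrl2 an adhesion G protein-coupled receptor and Elavl2 a neuronal RNA-binding protein. Col19a1 held 25 kept summits on average in tumor, 3.67 in untreated VDR and 11.7 with siNC, and Elavl2 held 23.3, 2.67 and 8.67. For Barhl1 they were Ldhal6b (r = 0.903), Tmem242 (r = 0.898), which are both on chromosome 17, and Xaf1 (r = 0.887). Ldhal6b and Tmem242 had equal means with siNC (19.7), siNfia (17) and siNfib (17.7). Overlap between the windows of like genes was not excluded, so they may not be separate matches. These values describe libraries that share groups.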

How the data were processed

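Peak summits of 21 Omni-ATAC libraries were analysed. The authors deposited 1 summit list per library on mm10, and each summit has a score that was taken as a −log10 p-value or q-value from MACS2, which of the 2 not being stated. Bowtie2, Picard and MACS2 are named without versions or settings, per the submitters' processing notes. Because depth affects the score, it only ranked summits within a list, and the 100000 highest were kept (autosomes, X and Y). Scores are tied, and 2048 to 20502 summits shared the score at rank 100000 in 18 libraries and 39690 to 54578 in untreated VDR. Ties were ranked in an order drawn with a fixed seed, a choice made after this was seen. Depth is unknown, so no counting interval is given.

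Kept summits were counted per protein-coding gene (gene body plus 100 kb, GRCm38.p6, 21883 genes) and merged by rank into 500 bp regions. Counts were analysed as log2(count + 1) with limma 3.58.1 in R 4.3.3, with a trended variance, for genes with a mean of at least 3. The fits held the 9 primary libraries, the 9 siRNA libraries or all 21 for comparisons of line and tumor. Calls were made where the p adjusted by Benjamini-Hochberg over all genes tested was below 0.05. The code was tested on simulated data. Window counts were also compared with exact permutation tests over 3 groups of 3, of which 4 were run. Regions named in the text are those within 1 kb of a gene end, those in all 21 libraries, the 5 changed regions of best rank per locus and comparison, and others where stated or needed to account for a count. Like genes are the 3 with the highest r among genes with a mean of at least 10 and a window that does not overlap.

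Same-numbered libraries of different groups were checked for shared deviations. Genes, windows and lists were chosen with earlier results of these data known. Alternatives tried were other list lengths, score and count minimums, flanks, widths, pseudocounts, a chromosome baseline, a replicate block, other treatments of ties, and leaving out each library.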

Additional observations from a re-analysis of the deposited data

How the results depend on the processing

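Barhl2 stayed called lower in VDR and in siNC-treated VDR against tumor under every alternative run, with ranges of -4.80 to -2.06 and -2.48 to -0.85 on the log2 scale. Other values depend on settings, and the cause was not tested. With the 50000 highest summits, Barhl1 was called in hyperplasia against GNP (-0.47), untreated VDR against tumor (-0.36) and siNC against tumor (-0.41), while tumor against hyperplasia at Barhl1 (0.10) and siNfib at Barhl2 (0.14) turned sign. With scores of at least 10, where lists differ in length, those Barhl1 calls were -0.68, -2.77 and -1.03, tumor against GNP was no longer called (-0.55), and tumor against hyperplasia at Barhl1 (0.13) and siNfib at Barhl1 (0.65) and Barhl2 (0.81) turned sign. With whole lists, Barhl1 was called in untreated VDR (-0.77) and not in tumor against GNP (-0.31), and sign turned for tumor against hyperplasia at Barhl1 (0.0084) and Barhl2 (-0.13), siNfia at Barhl2 (-0.030) and siNfib at Barhl1 (0.12) and Barhl2 (0.33). Counting occupied regions ended the Barhl1 call in tumor against GNP (-0.18) and turned Barhl2 there (0.0023) and with siNfia (-0.18). Flanks of 50 kb and 10 kb ended the same Barhl1 call (-0.31 and -0.41) and made the one in untreated VDR (-0.45 and -1.24), and 10 kb turned Barhl2 from hyperplasia to tumor (-0.067). The chromosome baseline turned Barhl1 with siNC against tumor (0.16). Both treatments of ties were chosen after seeing the data. Leaving out tied summits called Barhl1 in untreated VDR (-0.41) and turned siNfib at Barhl2 (0.028), and ties in list order gave -0.47 and turned siNfia at Barhl2 (-0.10). Leaving out 1 library at a time gave -0.47 to -0.34 for Barhl1 in tumor against GNP, -0.36 to -0.078 in untreated VDR and -0.14 to 0.022 with siNC against tumor, and for Barhl2 -0.10 to 0.12 from hyperplasia to tumor, -0.28 to 0.25 with siNfia and -0.50 to 0.0011 with siNfib.

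Changed regions at both loci numbered 5 in hyperplasia against GNP (3 with 50000 summits, 8 with whole lists, 8 with scores of at least 10), 0 in tumor against hyperplasia (2, 2 and 2, and 1 with 1000 bp regions), 1 with siNfia (2, 0 and 2, and 2 with 1000 bp), 1 with siNfib (0, 2 and 0), 16 in untreated VDR against tumor (35 with whole lists, 30 with scores of at least 10, 10 with 1000 bp) and 12 with siNC (22 with whole lists). Leaving out 1 library gave 0 to 3 in tumor against hyperplasia, 5 to 8 in tumor against GNP, 1 to 4 with siNfia and 1 to 3 with siNfib. The permutation p of Barhl1 over stages was 0.0714 with whole lists and 0.0893 with ties in list order, and over siRNA groups 0.189 with whole lists and 0.0571 without tied summits.

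Same-numbered libraries deviated together weakly at most (1 of 15 pairs above 0.1, range -0.039 to 0.116). Pairs of stages ran from -0.039 to 0.036, while pairs of siRNA groups were all positive, from 0.005 to 0.116. A replicate block changed no call at either locus (Barhl1 in tumor against GNP, -0.42 with adjusted p = 0.0282 by limma, and Barhl2 in untreated VDR, -2.68).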
